A study of Homo sapiens with 12 samples.

Results

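The genes described here are the numbered zinc finger (ZNF) genes of human chromosome 19. They were taken as the genes of the count table whose symbol is ZNF, a number and at most 1 further letter, whose position is on chromosome 19, and whose level was over 0.5 CPM (counts scaled to a fixed library total) in at least 2 of the 12 libraries. Of 252 chromosome 19 genes with such a symbol, 213 met the floor, among 15595 genes of any name that met it. The floor cut through low values without a gap. The second-highest level of a gene over the 12 libraries was 0.512 CPM for ZNF781 and 0.648 CPM for ZNF536, just inside, and 0.497 CPM for ZNF582 and 0.475 CPM for ZNF135, just outside.

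ZNF genes encode proteins that bind DNA through tandem C2H2 zinc fingers, in which a pair of cysteines and a pair of histidines hold a zinc ion. Most of those on chromosome 19 arose by tandem duplication, lie in clusters of neighbours, and carry a KRAB domain, which recruits the corepressor TRIM28 and, through it, the histone methyltransferase SETDB1 and HP1 proteins. Many of them bind and silence retrotransposons, and the ZNF clusters are themselves packed in chromatin that carries the repressive mark H3K9me3.

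The libraries were strand-specific poly(A)+ RNA-seq of 3 human carcinoma cell lines, RKO from colon and A549 and H460 from lung. Each line was kept for 24 h either in normoxia or at 1% O2 (hypoxia), with 2 independent replicates in each of the 6 groups. RKO and A549 cells grew in DMEM and H460 cells in RPMI, so that for H460 the line and the medium cannot be told apart. Each tissue of origin is represented by established lines rather than by donors, and replicates are cultures of 1 line, so p-values measure the spread between cultures only.

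Summed counts per library ranged from 27350424 to 41757584, and the ZNF genes of chromosome 19 took 0.17% to 0.48% of them, with a median of 143 to 509 reads per gene. CA9, NDRG1 and VEGFA, which are known to respond to low oxygen, were called higher in hypoxia in all 3 lines, with a median log2 fold change of 4.28 in RKO, 4.73 in A549 and 6.07 in H460. The epithelial markers EPCAM, CDH1, KRT8 and KRT18 summed to 103 to 196 CPM in RKO, 2473 to 3107 CPM in A549 and 990 to 1286 CPM in H460, and KRT18 was called lower in RKO hypoxia. Most of the RKO sum was KRT18, at 88.7 to 183 CPM, while CDH1 was at or under 0.106 CPM there. H460 held EPCAM at or under 0.498 CPM and CDH1 at or under 0.626 CPM, so that its sum came from the keratins. The colon markers KRT20, VIL1 and CDH17 were at or near 0 in RKO, where CDX2 stood at 9.29 to 15.5 CPM. CDH17 stood at 1.72 to 2.5 CPM in A549. The lung markers NKX2-1 and SFTPB were near 0 in A549, where NAPSA stood at 3.26 to 4.89 CPM and KRT7 at 2552 to 3674 CPM. In H460, SFTPB was at 0, NAPSA at 0.426 to 0.730 CPM and KRT7 at 14.4 to 16.8 CPM, and NKX2-1 was called higher in hypoxia, from 0.0709 and 0 to 3.67 and 3.41 CPM. Its part in the H460 results below was not tested. The blood marker PTPRC and the endothelial marker PECAM1 were at or under 0.104 CPM in all 12 libraries. The fibroblast marker COL1A1 ranged from 47.0 to 429 CPM in A549 and was called higher there in hypoxia, as it was in RKO (0.345 and 0.452 against 1.73 and 2.0 CPM), with COL1A2 at or under 0.145 CPM in all 12 libraries.

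When ordered by start position and split at gaps of over 1 Mb, the 252 genes formed 16 clusters, numbered here from the short arm to the long arm. On GRCh37, 9 of the clusters held at least 5 genes over the floor and together 203 of the 213. Cluster 1 lies at 2.8 to 2.9 Mb with 5 of them, cluster 2 at 7.1 to 9.9 Mb with 13, and cluster 3 at 11.6 to 12.7 Mb with 24. Cluster 5 lies next to the centromere, at 19.8 to 24.3 Mb, with 22, cluster 8 at 35.2 to 35.5 Mb with 5, and cluster 9 at 36.7 to 38.3 Mb with 25. Cluster 12 lies at 44 to 45.6 Mb with 24, cluster 15 at 52.1 to 54.1 Mb with 33, and cluster 16, next to the end of the long arm, at 56.0 to 59.0 Mb with 52. The 9 large clusters are the units compared along the chromosome, and the other 10 genes lie in 7 small clusters.

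A GENCODE coding sequence with an open frame was read for 208 of the 213 genes on GRCh37. Their proteins held 1 to 31 matches to the C2H2 spacing, with a median of 12, and ZNF91 held the most. A pattern of the KRAB A box was found in 166 of them (79.8%). As 1 fixed pattern was searched in the longest coding sequence alone, a gene without a match may still encode a KRAB domain. Near-identical copies make some counts uncertain, because reads that fit several places equally have a low mapping quality, and such alignments were removed. Windows of 100 bases were compared with the transcripts of all genes that do not overlap the gene. ZNF417 shares 21.7% of its windows with such transcripts, most of them with ZNF587. ZNF443, ZNF587, ZNF324B, ZNF585B and ZNF552 each share between 10.47% and 14.92%, with a gene of the same cluster as the largest partner. No window is shared with any such transcript in 165 of the genes.

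The start regions of 8 genes are printed here because the hypoxia results below turn on them: ZNF841, ZNF160, ZNF614 and ZNF611 of cluster 15, and ZNF460, ZNF581, ZNF773 and ZNF587B of cluster 16. Each runs 5′ to 3′ on the gene's strand from 250 bases before to 50 bases after the first start listed for that gene, taken from RefSeq on GRCh38.p14. Capitals mark ACGTG or GCGTG on either strand, which reads CACGT or CACGC on the reverse strand. These letters hold the core that hypoxia-inducible factors are known to bind, and a match is a description of the letters and not a binding site.
ZNF841, chr19:52095716-52096015, minus strand: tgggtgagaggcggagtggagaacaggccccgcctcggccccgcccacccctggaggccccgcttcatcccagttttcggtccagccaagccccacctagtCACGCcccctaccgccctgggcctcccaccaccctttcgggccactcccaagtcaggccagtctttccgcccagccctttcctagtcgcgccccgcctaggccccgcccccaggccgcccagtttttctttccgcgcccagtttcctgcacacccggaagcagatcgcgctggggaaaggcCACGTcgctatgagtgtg
ZNF160, chr19:53103373-53103672, minus strand: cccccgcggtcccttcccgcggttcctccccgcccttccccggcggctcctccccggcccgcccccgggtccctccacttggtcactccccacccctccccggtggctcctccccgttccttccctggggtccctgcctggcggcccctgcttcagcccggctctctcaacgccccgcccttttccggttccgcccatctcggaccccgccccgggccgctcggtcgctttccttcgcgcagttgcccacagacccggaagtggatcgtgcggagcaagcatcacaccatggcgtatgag
ZNF614, chr19:52028330-52028629, minus strand: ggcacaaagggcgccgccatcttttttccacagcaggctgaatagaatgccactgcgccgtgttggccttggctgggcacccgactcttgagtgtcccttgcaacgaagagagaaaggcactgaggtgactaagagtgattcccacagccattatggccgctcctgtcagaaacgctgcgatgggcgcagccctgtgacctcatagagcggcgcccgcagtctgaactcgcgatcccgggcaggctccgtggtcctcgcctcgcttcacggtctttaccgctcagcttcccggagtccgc
ZNF611, chr19:52734995-52735294, minus strand: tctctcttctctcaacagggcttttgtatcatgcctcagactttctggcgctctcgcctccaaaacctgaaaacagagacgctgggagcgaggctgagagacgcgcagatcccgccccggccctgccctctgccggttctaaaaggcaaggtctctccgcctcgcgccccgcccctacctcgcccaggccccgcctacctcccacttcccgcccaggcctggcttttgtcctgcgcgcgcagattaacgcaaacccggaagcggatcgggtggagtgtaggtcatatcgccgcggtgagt
ZNF460, chr19:57279732-57280031, plus strand: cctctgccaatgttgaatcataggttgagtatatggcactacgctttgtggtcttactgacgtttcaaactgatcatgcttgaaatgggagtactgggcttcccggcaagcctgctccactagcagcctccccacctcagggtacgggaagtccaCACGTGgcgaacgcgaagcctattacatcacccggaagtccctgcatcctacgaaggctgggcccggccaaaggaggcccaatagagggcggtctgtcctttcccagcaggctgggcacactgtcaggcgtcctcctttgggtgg
ZNF581, chr19:55643399-55643698, plus strand: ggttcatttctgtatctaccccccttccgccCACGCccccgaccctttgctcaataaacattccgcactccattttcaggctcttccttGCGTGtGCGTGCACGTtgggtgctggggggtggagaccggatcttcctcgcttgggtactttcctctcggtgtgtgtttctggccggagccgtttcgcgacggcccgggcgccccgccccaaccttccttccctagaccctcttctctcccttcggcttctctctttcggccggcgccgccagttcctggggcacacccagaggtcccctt
ZNF773, chr19:57499688-57499987, plus strand: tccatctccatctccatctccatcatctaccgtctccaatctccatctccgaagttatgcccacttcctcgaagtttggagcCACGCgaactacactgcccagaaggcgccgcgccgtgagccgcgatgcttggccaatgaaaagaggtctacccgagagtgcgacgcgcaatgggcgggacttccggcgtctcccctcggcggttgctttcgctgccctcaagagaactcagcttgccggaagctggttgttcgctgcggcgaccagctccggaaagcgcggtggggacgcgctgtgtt
ZNF587B, chr19:57830049-57830348, plus strand: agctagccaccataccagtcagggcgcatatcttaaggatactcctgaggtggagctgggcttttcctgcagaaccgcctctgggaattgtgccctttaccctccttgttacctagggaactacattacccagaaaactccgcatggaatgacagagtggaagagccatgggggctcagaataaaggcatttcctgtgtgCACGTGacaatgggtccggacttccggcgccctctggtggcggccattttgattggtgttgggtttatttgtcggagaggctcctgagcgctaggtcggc

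ZNF160, ZNF614 and ZNF611 held no such core in these 300 bases, and ZNF581 held 4. In ZNF460 and ZNF587B the marked letters are the palindrome CACGTG, which counts on both strands. A RefSeq start region was matched for 187 of the 213 genes and 11976 of the 15595 genes over the floor. At least 1 core (ACGTG or GCGTG) was present in 60.4% of the former and 61.8% of the latter, and ACGTG in 18.7% and 26.1%. The median number of CpG dinucleotides in the 300 bases was 21 against 26.

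In normoxia, the ZNF genes of chromosome 19 stood higher in RKO than in either lung line. Their summed level was 3123 and 3287 CPM in the RKO normoxia libraries, 1650 and 1961 CPM in A549, and 1855 and 2135 CPM in H460. Per length, the median gene stood at 3.52 and 3.79 RPKM in RKO, 1.21 and 1.42 RPKM in A549, and 1.73 and 1.96 RPKM in H460, while the median of all 15595 genes was between 6.51 and 7.41 RPKM in these 6 libraries. The 3 lines did not overlap in either measure except that A549 and H460 overlapped in the summed level. In bulk RNA, fewer cells expressing a gene and less RNA per cell cannot be told apart.

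Of the 213 genes, 126 were called higher in RKO than in A549 normoxia, where 26.0% of all genes were, and 32 were called lower, where 34.1% of all genes were (edgeR, adjusted p under 0.1 and fold over 1.5). The median log2 ratio was 1.08, against 0.42 for numbered ZNF genes on other chromosomes and -0.08 for all genes. Between RKO and H460, 123 were called higher in RKO (27.2% of all genes) and 36 higher in H460 (34.7% of all genes). The median was 0.79, against 0.22 for numbered ZNF genes on other chromosomes, 0.36 for other chromosome 19 genes and -0.09 for all genes. Between the lung lines, 33 were called higher in A549 (26.9% of all genes) and 82 higher in H460 (25.2% of all genes), with a median of -0.26. Numbered ZNF genes on other chromosomes leaned the same way, with 16.8% higher in A549, 29.9% higher in H460 and a median of -0.17. Other chromosome 19 genes had a median of 0.44. With a fold over 2, the count higher in A549 than in H460 was 21. The floor that defines the 213 genes could be met through 1 line alone. Over 0.5 CPM in at least 2 libraries of 1 line only were 30 genes in RKO, 8 in H460 and 3 in A549. Such genes entered the set because they were high in that line. They are included in the counts and medians above, and their share in these is no support for a difference between lines.

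A large part of these differences lay in genes with hardly any reads in a line. In RKO 192 of the 213 genes passed the level filter of the line (over 0.5 CPM in 2 of its 4 libraries), in A549 145 and in H460 175. These are 90.1%, 68.1% and 82.2%, where 82.2%, 91.4% and 90.3% of all genes over the floor passed. 127 genes passed in all 3 lines, 30 in RKO and H460 but not A549, 30 in RKO alone, 10 in the lung lines but not RKO, 8 in H460 alone, 5 in RKO and A549 and 3 in A549 alone. At most 3 reads over the 4 libraries of a line were counted for 40 genes in A549, 17 in H460 and 13 in RKO.

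The genes under the filter in A549 lay side by side. In cluster 3, 17 consecutive genes from ZNF441 to ZNF709 (11877815 to 12595632 on GRCh37) were all under it. Summed over the 17, their level was 0.0239 to 0.378 CPM in the 4 A549 libraries, 11.5 to 14.4 CPM in H460 and 158 to 274 CPM in RKO, so the ranges of the 3 lines did not overlap. All 17 passed the filter in RKO and 5 in H460, and the stretch held no gene of another name over the floor. In cluster 15, 15 consecutive genes from ZNF610 to ZNF160 (52839498 to 53606687) summed to 0.287 to 0.667 CPM in A549, 111 to 222 CPM in H460 and 288 to 508 CPM in RKO. In RKO 13 of these 15 passed and in H460 12, again with no gene of another name over the floor between them.

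Both lung lines were low over the same 6 consecutive genes of cluster 5, from ZNF506 to ZNF85 (19903520 to 21133503). These summed to 0.0476 to 0.263 CPM in A549, 0.733 to 1.18 CPM in H460 and 76.9 to 109 CPM in RKO. In cluster 9, 6 consecutive genes from ZNF850 to ZNF420 summed to 0.0953 to 0.123 CPM in A549, against 30.8 to 38.4 CPM in H460 and 62.0 to 102 CPM in RKO. The share of genes that passed in A549 was 25% in cluster 3, 40.9% in cluster 5, 52.0% in cluster 9 and 39.4% in cluster 15. It was 100% in clusters 2, 8 and 12 and 94.2% in cluster 16. Genes under the filter in A549 had a median of 18.5 CpG in the start region and those over it 22, in H460 these medians were 14 and 22, and in RKO 20 and 21.

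**Figure D1:**
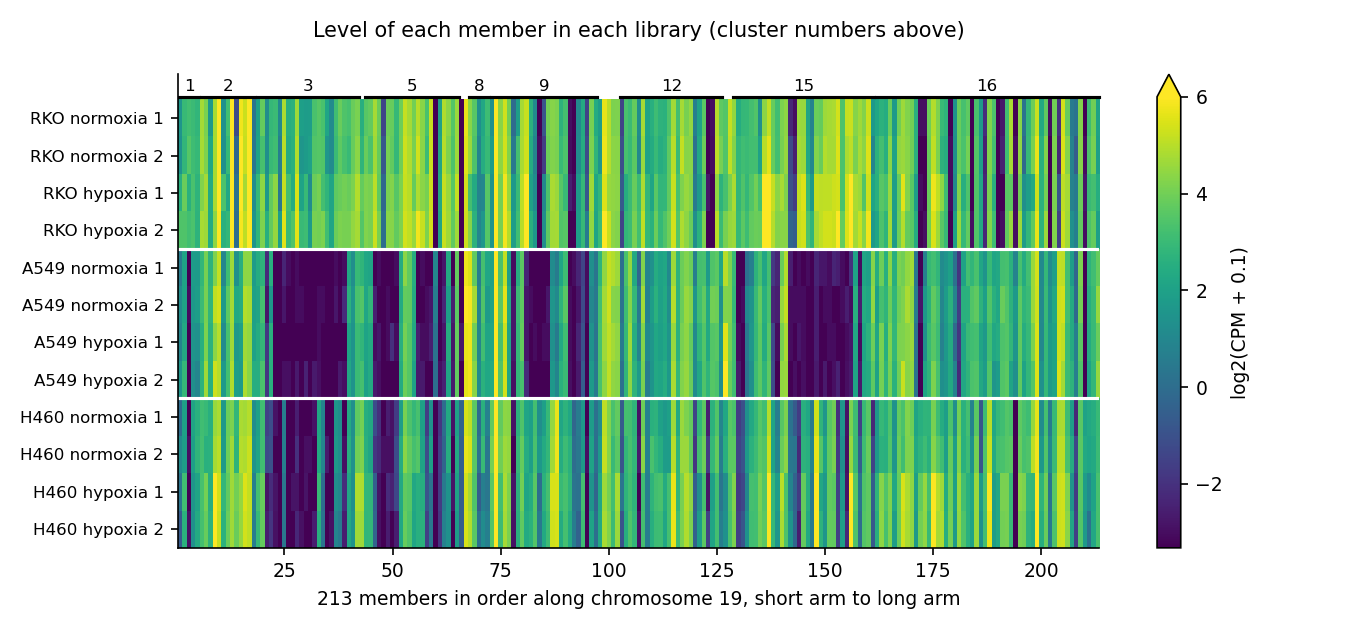
Level of each of the 213 genes, in order along chromosome 19, in each of the 12 libraries, as log2(CPM + 0.1), with cluster numbers above. Dark stretches in the A549 libraries mark the 17 neighbours of cluster 3 and the 15 of cluster 15 that stayed under the level filter in A549.

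Of the 21 genes under the filter in RKO, 8 were under it in A549 too, 3 in H460, and 10 were over it in both lung lines. Cluster 16 held 11 of the 21: ZNF471, ZNF470, ZNF304, ZNF772, ZNF549, ZNF530, ZNF134, ZNF671, ZNF606, ZNF274 and ZNF132. ZNF274, known to bring SETDB1 to the 3′ ends of other ZNF genes, stood at 0.159 and 0.1 CPM in RKO normoxia and 0.444 and 0.240 CPM in RKO hypoxia. In the lung lines it stood at 35.3 to 43.8 CPM in A549 and 27.1 to 38.5 CPM in H460. In normoxia its log2 ratio of RKO to A549 was -8.12 (SE 0.29, n = 2 per group). ZNF304, which is known to take part in epigenetic silencing together with TRIM28, was 940-fold higher in H460 than in RKO normoxia, with a 95% interval from counting error of 168 to 37183, because RKO normoxia held so few of its reads.

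For genes with 0 reads in a line's normoxia libraries, the ratio is a lower bound against 3 reads over the pair of libraries. ZNF69 of cluster 3 had 472 reads in RKO normoxia and was at least 168-fold higher there than in A549 and at least 127-fold higher than in H460. ZNF738 of cluster 5 was at least 983-fold higher in RKO and at least 290-fold higher in H460 than in A549. In the other direction, ZNF530 was at least 124-fold higher in A549 and at least 213-fold higher in H460 than in RKO, and ZNF772 at least 231-fold and 54.9-fold. ZNF530 and ZNF772 both lie in cluster 16. ZNF439 of cluster 3 was at least 112-fold higher in RKO than in H460, ZNF737 of cluster 5 at least 383-fold higher in RKO than in A549, and ZNF345 of cluster 9 at least 265-fold higher in H460 than in A549. With 2 reads in RKO normoxia, ZNF229 of cluster 12 was 517-fold higher in A549, with an interval from 143 to 4277.

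In RKO, hypoxia raised more of these genes than it lowered. Of 192 genes tested, 47 were called higher (24.5%, against 18.8% of all genes) and 9 were called lower (4.69%, against 15.1% of all genes). The median log2 fold change was 0.31, with 137 of 192 positive, and was 0.01 over all genes, 0.02 over numbered ZNF genes on other chromosomes (24 higher and 15 lower of 221) and 0.12 over other chromosome 19 genes (188 higher and 103 lower of 754). The summed level went from 3123 and 3287 CPM to 3944 and 4277 CPM. In 112 genes (58.3%) both hypoxia libraries were above both normoxia libraries and in 29 (15.1%) both were below, against 38.9% and 31.6% of all genes. The count of higher genes was 28 without normoxia replicate 1. The count of lower genes was 21 without hypoxia replicate 2, 4 without hypoxia replicate 1, and 5 without either normoxia library. Of the 192, 2 passed the filter through the hypoxia libraries alone, and both were called higher.

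The RKO calls were spread unevenly along the chromosome. In cluster 3, 14 of 24 genes were called higher and 0 lower, with a median log2 fold change of 0.65. In cluster 15 these were 11 and 0 of 31 (median 0.44), and in cluster 9 they were 6 and 0 of 22 (median 0.42). Clusters 1, 2 and 5 held no lower call either, with 2 higher of 5, 2 of 13 and 3 of 21. At an unadjusted p under 0.05 in edgeR, 1 gene of cluster 9 and 0 of clusters 1, 2, 3, 5 and 15 were lower, and DESeq2 called 0 lower in all 6. Grouped after their values were seen, clusters 3, 9 and 15 held 31 of the 47 higher genes, and the 115 tested genes elsewhere held 16 higher and 9 lower, with a median of 0.16. In cluster 8, 0 of 5 were called higher and 3 lower (median -0.67), also with DESeq2 and at an unadjusted p under 0.05, and in cluster 16, 4 and 3 of 41 (median -0.01).

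These counts by cluster moved when single RKO libraries were left out. The count of higher genes in cluster 3 was 6 without normoxia replicate 1 and 5 without normoxia replicate 2, and that of clusters 3, 9 and 15 together was 19 and 22. In cluster 9 it was 4 with DESeq2 or without hypoxia replicate 1, and 3 without normoxia replicate 1 or hypoxia replicate 2. Without hypoxia replicate 2, 3 genes of the 3 clusters were called lower, cluster 1 held 1 lower, cluster 2 held 2 lower and cluster 16 held 7 higher and 7 lower, while cluster 16 held 5 and 0 without hypoxia replicate 1. The median of cluster 8 was -0.20 without hypoxia replicate 1 and -1.19 without hypoxia replicate 2. Within clusters 3, 9 and 15, RKO had 4 higher and 2 lower calls among 15 tested genes of other names, and the 3 in cluster 3 had a median of -0.65. Differences between clusters were described and not tested.

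ZNF841, a KRAB gene of cluster 15 on the minus strand at 52567719 to 52599018, had the largest increase among the RKO genes with at least 100 reads on average. It stood at 34.6 and 48.4 CPM in RKO normoxia and at 249 and 216 CPM in hypoxia, a 5.36-fold difference (log2 2.42, SE 0.19, adjusted p = 4.42e-05). The hypoxia libraries were far above the normoxia libraries. In H460 it went from 30.6 and 38.3 to 67.4 and 62.2 CPM (log2 0.89), and in A549 the values were 9.12 and 9.89 CPM against 11.7 and 12.7 CPM. Scaled by library size alone, the H460 log2 value was 0.54 and did not pass the fold threshold.

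ZNF404 of cluster 12 and ZNF614 of cluster 15 came next in RKO. ZNF404 went from 2.28 and 1.93 to 8.11 and 8.85 CPM (log2 1.95, SE 0.27, adjusted p = 0.000493) and ZNF614 from 2.39 and 3.92 to 9.41 and 14.2 CPM (log2 1.84, SE 0.31, adjusted p = 0.00141). In H460, where ZNF614 lay between 11.5 and 16.8 CPM, it was not called, and in A549 its normoxia and hypoxia libraries overlapped. The largest decreases in RKO by the same rule were smaller. ZNF296, known as a pluripotency-associated factor, went from 12.7 and 17.0 to 6.48 and 8.10 CPM (log2 -1.08), ZNF181 from 11.7 and 10.4 to 5.05 and 6.32 CPM (log2 -1.02), and ZNF30 from 4.70 and 5.32 to 1.87 and 2.85 CPM (log2 -1.15).

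**Figure D2:**
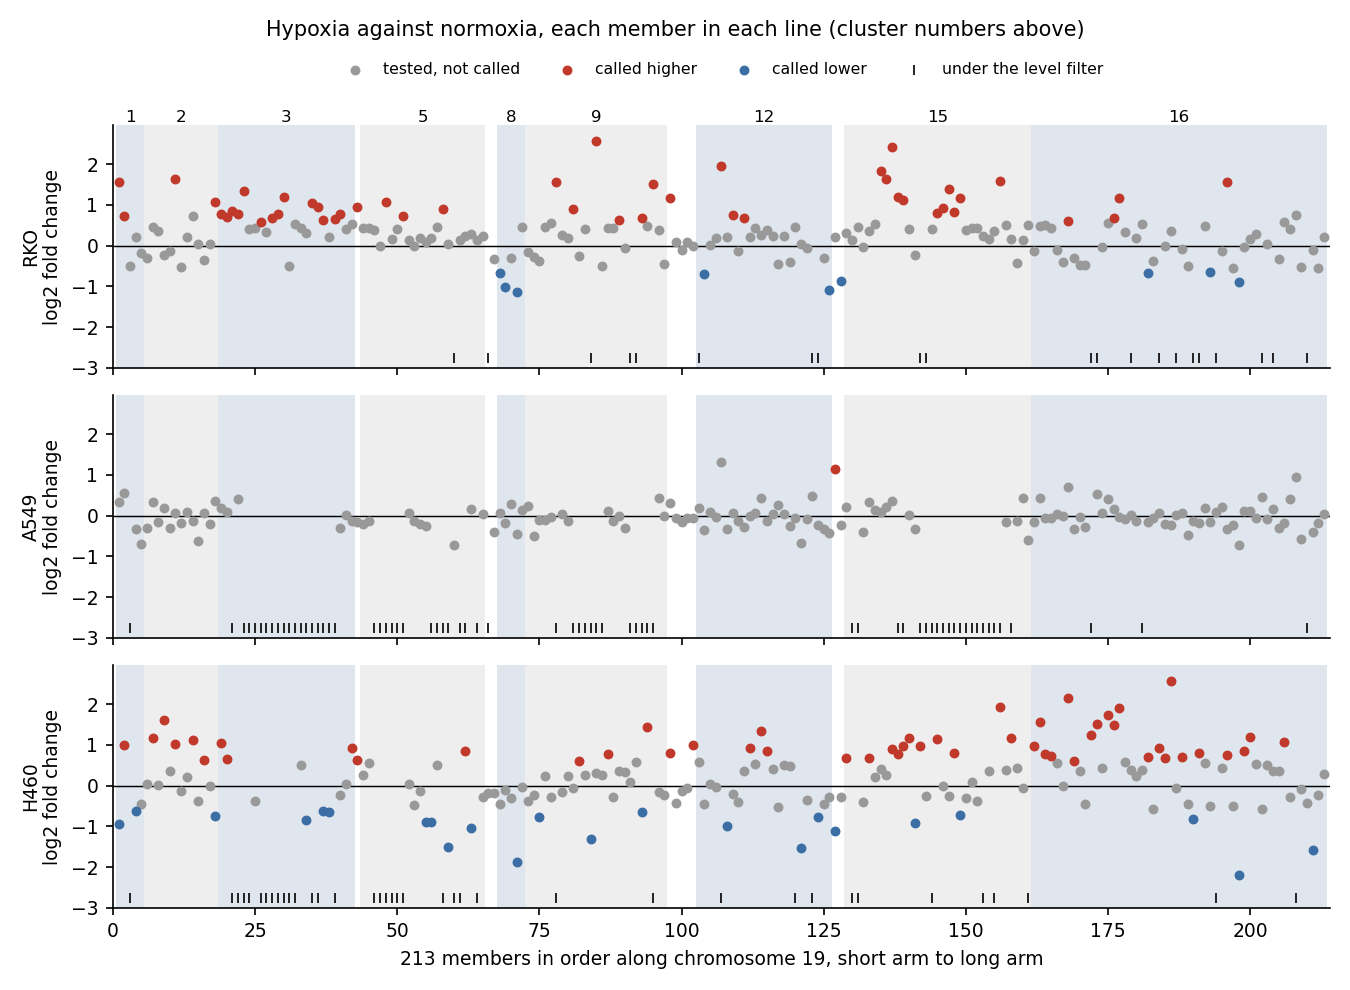
Log2 fold change of hypoxia against normoxia (edgeR) for each gene in order along chromosome 19, in 1 panel per line, with genes called higher or lower in colour, genes not called in grey and genes under the level filter as ticks at the bottom. In RKO the called genes of clusters 1, 2, 3, 5, 9 and 15 all lie above 0, and in A549 only ZNF114 is called.

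In H460, more genes were called in both directions. Of 175 tested, 51 were called higher (29.1%, against 24.6% of all genes) and 23 lower (13.1%, against 27.3% of all genes), with a median log2 fold change of 0.23. The median was -0.04 over all genes, -0.09 over numbered ZNF genes on other chromosomes (33 higher and 65 lower of 230) and 0.20 over other chromosome 19 genes (264 higher and 158 lower of 779). The summed level went from 1855 and 2135 CPM to 2612 and 2521 CPM. Of the 175, 1 passed the filter through the hypoxia libraries alone and was called higher. Through the normoxia libraries alone 1 passed, and it was not called. The direction in H460 depended on the scaling. With library size alone in place of TMM factors, the log2 fold changes of all genes in H460 shifted by a median of -0.35, the calls became 24 higher and 53 lower, and the median of the chromosome 19 ZNF genes became -0.12. In RKO the same change shifted all genes by 0.08 and gave a median of the same sign. Limma on the deposited RPKM, which are scaled by library size, gave 21 higher and 48 lower in H460. Changes in H460 are therefore stated relative to the other genes of the same libraries.

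Relative to those genes, most of the higher calls in H460 lay in clusters 15 and 16. In cluster 16, 21 of 50 genes were called higher and 3 lower (median log2 fold change 0.53), and in cluster 15 these were 11 and 2 of 27 (median 0.38). Over both, 32 were called higher and 5 lower of 77, and over the other 98 genes 19 and 18 (median -0.07). Cluster 5 held 1 higher and 4 lower of 12 (median -0.20), and cluster 3 held 3 and 3 of 10 (median -0.08), which became 3 and 0 with DESeq2 and 3 and 1 without normoxia replicate 2. Scaled by library size alone, which lowers all H460 genes alike, clusters 15 and 16 held 15 higher and 18 lower of 77 (median 0.08) and the other 98 genes 9 and 35 (median -0.42), so that the medians kept their order while the sign of the calls depended on the scaling. Without H460 normoxia replicate 1, cluster 16 held 18 and 7 and cluster 15 held 7 and 3. The 15 tested genes of other names inside cluster 16 held 6 higher and 3 lower, with a median of 0.11.

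**Figure D3:**
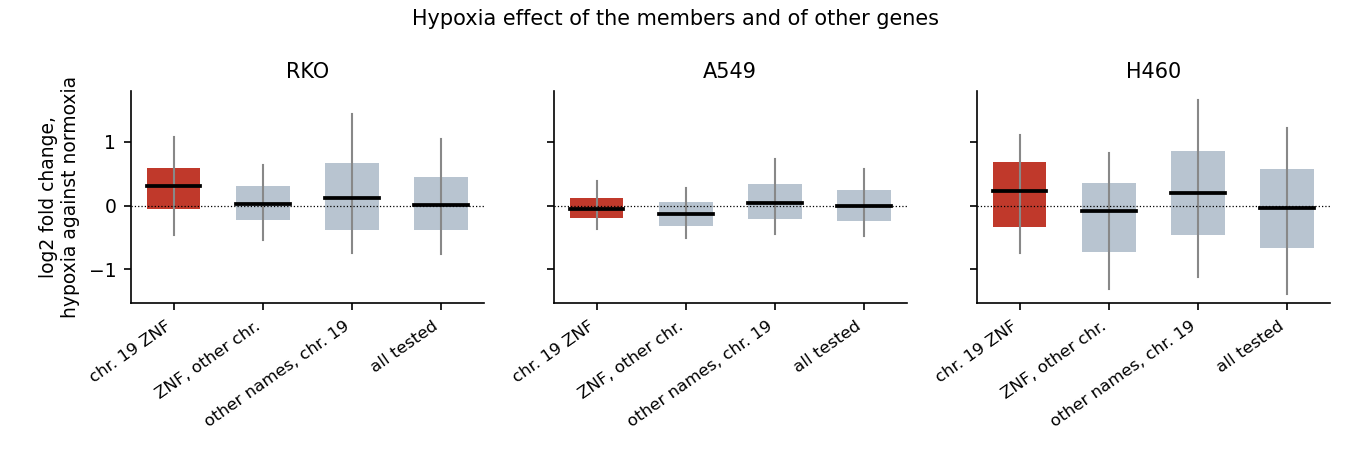
Hypoxia effect (log2 fold change) in each line for the chromosome 19 ZNF genes, numbered ZNF genes on other chromosomes, other chromosome 19 genes and all genes tested, where thin lines span the 10th to 90th percentiles, boxes the quartiles and black marks the median. The chromosome 19 ZNF genes have medians of 0.31 in RKO, -0.05 in A549 and 0.23 in H460.

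The largest increases in H460 among genes with at least 100 reads on average were in clusters 15 and 16. ZNF581, a short protein with 4 finger matches and no KRAB pattern, went from 9.79 and 8.65 to 42.8 and 39.9 CPM (log2 2.15, SE 0.12, adjusted p = 1.92e-08). ZNF460, a KRAB gene, went from 5.39 and 8.74 to 25.1 and 29.1 CPM (log2 1.91, SE 0.19, adjusted p = 2.37e-06). ZNF160 of cluster 15 went from 17.8 and 23.3 to 80.1 and 79.5 CPM (log2 1.94, SE 0.12, adjusted p = 6.55e-08). In all 3 genes the hypoxia libraries were far above the normoxia libraries. ZNF773 of cluster 16, which is named here for its higher level in A549 than in H460 normoxia, had few reads in H460 and went from 0.461 and 0.440 to 3.0 and 2.47 CPM (log2 2.57, SE 0.31, adjusted p = 1.23e-05). It passed the level filter of H460 through the hypoxia libraries alone, so it was tested there only because it was high in hypoxia. ZNF160 was called higher in RKO as well, from 38.3 and 33.8 to 117 and 109 CPM (log2 1.59), while in A549 it was at or under 0.143 CPM in all 4 libraries. ZNF460 was also called in RKO, from 7.76 and 6.38 to 21.0 and 12.2 CPM (log2 1.17). ZNF581 in RKO went from 25 and 24.2 to 48.1 and 30.4 CPM (log2 0.61, adjusted p = 0.0433), a call that was lost without hypoxia replicate 1 (log2 0.29) and without either normoxia library.

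Among decreases in H460, ZNF587B of cluster 16 went from 23.1 and 32.7 to 7.13 and 5.32 CPM (log2 -2.19, SE 0.19, adjusted p = 7.72e-07), ZNF30 of cluster 8 from 5.96 and 7.68 to 1.52 and 2.19 CPM (log2 -1.88, SE 0.23, adjusted p = 1.77e-05) and ZNF235 of cluster 12 from 7.13 and 9.18 to 2.36 and 3.34 CPM (log2 -1.52). ZNF30 and ZNF587B were the only genes called lower in both RKO and H460. In RKO, ZNF587B went from 14.8 and 17.1 to 5.10 and 12.7 CPM (log2 -0.90, adjusted p = 0.0622), with log2 -0.34 and no call without hypoxia replicate 1 and no call without normoxia replicate 2. In A549 it stood at 23.3 and 23.5 CPM in normoxia and 17.4 and 11.4 CPM in hypoxia (log2 -0.71), which was not called.

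In A549, 145 of the 213 genes were tested. By edgeR 1 was called higher, against 2.22% of all genes, and 0 lower, against 0.456% of all genes. At an unadjusted p under 0.05, 3 were higher and 4 lower, and DESeq2 called 1 and 0. The median log2 fold change was -0.05 over these genes and -0.01 over all. In A549 normoxia, replicate 2 stood above replicate 1 by 0.25 in log2 units, as the median over the 145 genes, where the gap was between -0.04 and 0.18 in the other 5 groups. The gene called was ZNF114, at 31.7 and 18.6 CPM in normoxia and 46.3 and 67.0 CPM in hypoxia (log2 1.15, SE 0.28, adjusted p = 0.0993). This call was lost with RLE factors, with library size alone, with a filter of 1 CPM, with limma on RPKM, and without normoxia replicate 2 (log2 0.81) or hypoxia replicate 2 (log2 0.87). Without hypoxia replicate 1, 3 genes were called higher and 1 lower.

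**Figure D4:**
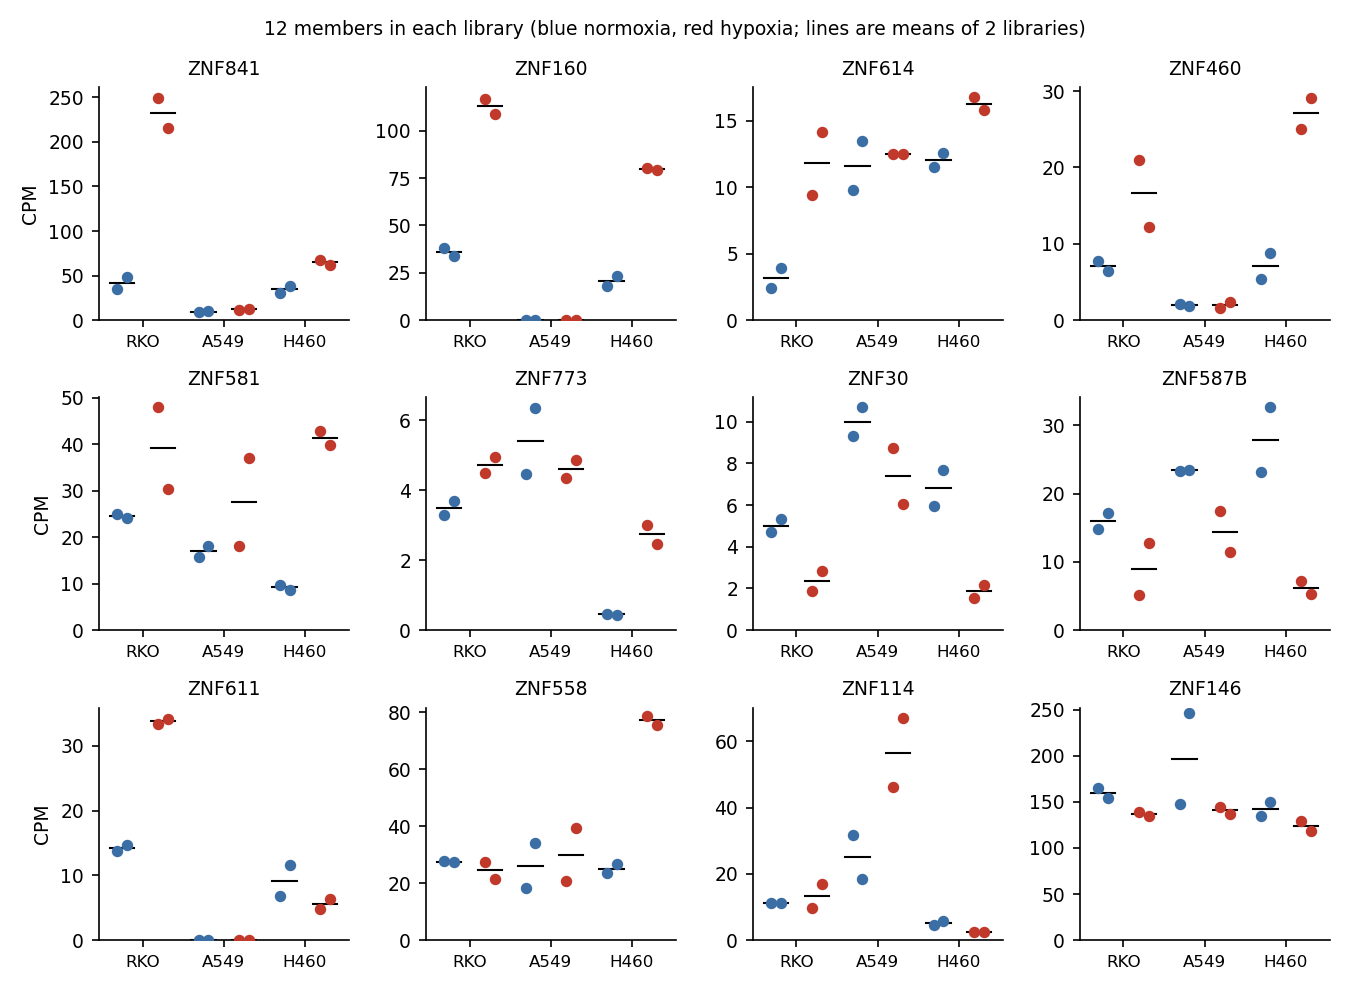
Level in CPM of 12 single genes in each library, by line, with normoxia in blue and hypoxia in red, where points are libraries and lines the means of 2. ZNF841, ZNF160 and ZNF614 show RKO hypoxia libraries far above normoxia, and ZNF773, ZNF581 and ZNF460 show the same in H460.

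Across the lines, 127 genes were tested in all 3. Of these, 0 were called higher in every line, where 0.977% of all genes were, and 0 were called lower in every line, where 0.109% of all genes were. DESeq2 also gave 0 and 0, and at an unadjusted p under 0.05 in all 3 edgeR fits 0 were higher and 1, ZNF587B, was lower. Without A549 hypoxia replicate 1 the counts were 1 and 1. A call in at least 1 line was made for 106 of the 213 genes (49.8%), where 59.3% of all genes had one. Among 157 tested in both RKO and H460, 16 were called higher in both (10.2%, against 8.79% of all genes), 2 lower in both (1.27%, against 9.19%), 5 up in RKO but down in H460 (3.18%, against 2.33%) and 1 the other way round (0.637%, against 0.494%).

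The 6 genes with opposite calls in RKO and H460 were ZNF611, ZNF846, ZNF554, ZNF799, ZNF540 and ZNF17, of which ZNF554, ZNF799 and ZNF540 are named after their values were seen. ZNF611 of cluster 15 went from 13.8 and 14.7 to 33.4 and 34.2 CPM in RKO (log2 1.18) and from 6.77 and 11.6 to 4.77 and 6.43 CPM in H460 (log2 -0.73), and the effects differed by 1.96 in the joint fit (SE 0.39, adjusted p = 0.0025). In A549 it was at or under 0.0476 CPM. The H460 call was lost without normoxia replicate 2 or hypoxia replicate 1. ZNF846 of cluster 2 went from 1.09 and 1.15 to 2.19 and 2.72 CPM in RKO (log2 1.07), a call lost without either normoxia library, and from 2.27 and 2.67 to 1.52 and 1.46 CPM in H460 (log2 -0.75). ZNF17 of cluster 16 was the reverse, from 9.72 and 10.2 to 5.59 and 7.44 CPM in RKO (log2 -0.67) and from 6.07 and 6.01 to 9.12 and 10.6 CPM in H460 (log2 0.69). Its RKO call was lost without hypoxia replicate 1 and without either normoxia library, and both calls were lost with library size alone. ZNF114 had opposite calls in the pair of lung lines, higher in A549 and lower in H460, where it went from 4.65 and 5.72 to 2.32 and 2.5 CPM (log2 -1.12, adjusted p = 0.000435).

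The hypoxia effect itself was compared between lines with an interaction term in a joint edgeR fit of all 12 libraries. It differed between RKO and A549 for 13 of the 213 genes (14.6% of all genes), between RKO and H460 for 54 (37.6% of all genes) and between A549 and H460 for 48 (36.0% of all genes). In A549, 68 of the 213 genes were under the level filter, and 68.1% passed it, against 91.4% of all genes. For these pairs in turn, the median SE of the term was 0.388, 0.353 and 0.383 over the 213 genes. Over all genes it was 0.288, 0.291 and 0.286. The counts also hold calls made on few reads, in genes under the level filter of both lines of the pair. Between A549 and H460, ZNF709 was called on 0 to 5 reads per library and ZNF833P on 1 to 11. How far low counts lowered or raised the counts of 13, 54 and 48 was not tested. All 13 differences between RKO and A549 were toward a higher value in RKO. Other genes leaned the same way, with 1408 toward RKO and 862 toward A549 over all genes. Among numbered ZNF genes on other chromosomes these were 17 and 4. The count of 13 fell to 6 without A549 hypoxia replicate 1, 7 without RKO hypoxia replicate 1 and 8 without either RKO normoxia library or A549 normoxia replicate 2, and it was 25 without A549 normoxia replicate 1. The count of 48 was 26 without H460 hypoxia replicate 1 and 29 without H460 normoxia replicate 1 or A549 hypoxia replicate 1. ZNF841 differed by 2.12 (SE 0.25, adjusted p = 0.000456) and ZNF614 by 1.8 (SE 0.37, adjusted p = 0.0107) between RKO and A549. ZNF773 differed by -2.82 between A549 and H460 (SE 0.41, adjusted p = 0.000365), with the higher value in H460.

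The summed levels show how much single genes add to a cluster. Cluster 15 summed to 575 and 614 CPM in RKO normoxia and 1094 and 1156 CPM in hypoxia, and in H460 to 251 and 306 CPM and 447 and 435 CPM. Without its leading genes ZNF841 and ZNF160, it summed to 502 and 531 CPM against 728 and 831 CPM in RKO and to 203 and 245 CPM against 300 and 294 CPM in H460. Cluster 3 went from 227 and 229 to 335 and 384 CPM in RKO, and cluster 16 from 512 and 588 to 867 and 838 CPM in H460. In each of these, both hypoxia libraries were above both normoxia libraries. In A549, cluster 15 summed to 118 and 147 CPM in normoxia and 125 and 127 CPM in hypoxia, so the conditions overlapped.

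**Figure D5:**
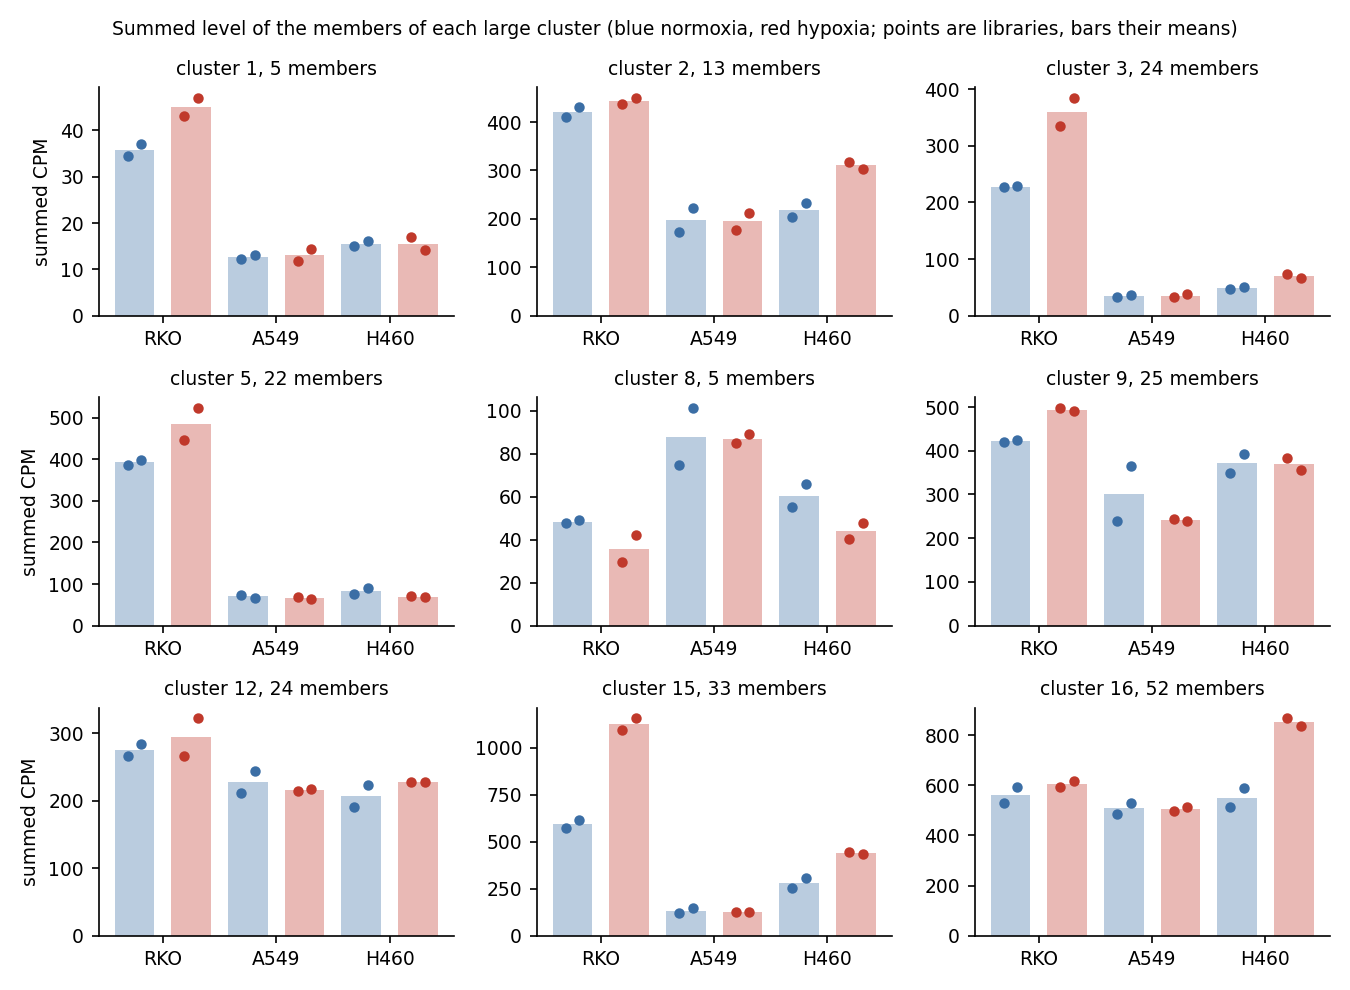
Summed CPM of the chromosome 19 ZNF genes of each of the 9 large clusters in each library, with normoxia in blue and hypoxia in red, where points are libraries and bars their means. The hypoxia bars of cluster 15 stand at over 1000 CPM in RKO against about 600 in normoxia.

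Per length, the genes with the highest mean over the 12 libraries were ZNF146 (39.4 RPKM), ZNF581 (21.2 RPKM), ZNF121 (18.2 RPKM), ZNF841 (17.4 RPKM) and ZNF224 (13.4 RPKM). ZNF121, the leading gene of cluster 2, stood at 33.4 to 40.0 RPKM in RKO, 10.3 to 19 RPKM in H460 and 1.89 to 3.43 RPKM in A549, so that the ranges of the lines did not overlap. The leading gene of cluster 3, ZNF791, stood at 12.7 and 15.5 CPM in H460 normoxia and 29.2 and 25.5 CPM in hypoxia (log2 0.93, adjusted p = 4.24e-05). In RKO it stood at 17.5 and 20.7 CPM against 30.6 and 27.0 CPM, a log2 value of 0.53 that fell short of the fold threshold. The leading genes of clusters 1, 5 and 8 were ZNF57, ZNF101 and ZNF302, at means of 2.66, 6.25 and 10.8 RPKM. ZNF302 was called lower in RKO (20.2 and 23.9 against 9.24 and 19.6 CPM, log2 -0.67), a call lost without hypoxia replicate 1 (log2 -0.19) and without either normoxia library.

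Genes with a role known from general knowledge were read as a list of 10. In RKO 8 of them were tested, with 2 called higher and 1 lower (25% and 12.5%, against 18.8% and 15.1% of all genes). In A549 7 were tested, with 0 and 0 called, against 2.22% and 0.456% of all genes. In H460 7 were tested, with 3 and 0 called (42.9% and 0%, against 24.6% and 27.3% of all genes). ZNF146, which consists of zinc fingers without a KRAB domain, had the highest CPM of the 10, at 118 to 246 CPM in the 12 libraries, and was not called in any line. ZNF473, known for its part in histone pre-mRNA processing, went from 36.3 and 34.1 to 17.4 and 22.8 CPM in RKO (log2 -0.87). ZNF382, a KRAB repressor, went from 0.877 and 1.26 to 3.06 and 3.54 CPM in RKO (log2 1.56, SE 0.34, adjusted p = 0.00521).

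ZNF91, known to repress SVA retrotransposons, stood at 29.4 and 30.7 CPM in RKO normoxia and 35.8 and 37.4 CPM in hypoxia, at or under 0.0981 CPM in A549 and at 0.704 to 1.60 CPM in H460. ZNF93, known to repress L1 elements, went from 0.292 and 0.477 to 0.764 and 0.933 CPM in RKO, a call lost without any single RKO library except normoxia replicate 2. In H460, ZNF558, known to repress the mitophagy gene SPATA18, went from 23.6 and 26.6 to 78.6 and 75.6 CPM (log2 1.60, SE 0.10, adjusted p = 5.04e-08), while in RKO it stood at 27.6 and 27.4 CPM against 27.4 and 21.5 CPM. ZNF224, which represses the aldolase A gene, went from 25 and 31.7 to 51.7 and 52.8 CPM in H460 (log2 0.86). The imprinted gene ZNF331 stood at 12.9 to 22.2 CPM in A549, 1.81 to 4.24 CPM in RKO and at or under 0.549 CPM in H460.

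The corepressor machinery that KRAB proteins recruit, and its neighbours in H3K9 methylation, was read as a list of 25 genes, all tested in every line. In RKO 3 were called higher and 7 lower (12% and 28%, against 18.8% and 15.1% of all genes), with a median log2 fold change of -0.36. In A549 1 and 0 were called, against 2.22% and 0.456% of all genes, and in H460 6 and 6 (24% each, against 24.6% and 27.3% of all genes), shares near those of all genes. TRIM28, the scaffold that binds KRAB domains, stood at 409 and 544 CPM in RKO normoxia and 307 and 310 CPM in hypoxia (log2 -0.69). In A549 it stood at 559 and 386 against 444 and 395 CPM, and in H460 at 281 and 272 against 338 and 327 CPM (log2 0.25), neither of them a call. SETDB1, the H3K9 methyltransferase of this pathway, went from 89.7 and 110 to 199 and 182 CPM in H460 (log2 0.91). KDM4B, an H3K9 demethylase, was called higher in all 3 lines, by log2 1.03 in RKO, 1.08 in A549 and 1.89 in H460. UHRF1, which maintains DNA methylation, was called lower in RKO (log2 -0.87) and H460 (log2 -2.29).

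Features of sequence varied with the calls as follows, as a description. Of the tested genes with a KRAB pattern, RKO had 38 of 151 called higher and 6 lower, and without it 6 and 3 of 37. In H460 these were 39 and 23 of 134 with the pattern and 12 and 0 of 39 without it. In A549, 65.1% of genes with the pattern passed the level filter and 85.7% of those without. In RKO these shares were 91.0% and 88.1%, and in H460 80.7% and 92.9%. Among genes with a matched start region, those with ACGTG were called higher in RKO in 10 of 32 and in H460 in 14 of 32, and those without it in 32 of 136 and 33 of 124. Their median log2 fold changes were ordered the other way, at 0.01 with and 0.33 without ACGTG in RKO and 0.14 and 0.26 in H460. With either core the count of higher genes was 24 of 101 against 18 of 67 without in RKO, and 35 of 97 against 12 of 59 in H460. The calls of all genes were not split by these features, so the splits cannot be called particular to the chromosome 19 ZNF genes. ZNF160, ZNF614 and ZNF611 were called higher in RKO without either core in the window printed above.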

How the data were processed

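The authors aligned strand-specific poly(A)+ reads with TopHat2 2.0.13 to GRCh37/hg19, removed alignments with a mapping quality under 10 with SAMtools, marked duplicates with Picard 1.129 and counted exon reads per gene with HTSeq 0.6.1 (reverse-stranded, intersection-nonempty), after checks with FastQC. These steps come from the study's methods and the submitters' processing notes and were not repeated. The versions of SAMtools and FastQC are left out because these sources differ on them. The authors deposited the raw counts of 25369 genes in 12 libraries, and a second deposited table of RPKM values, which equal the count scaled by gene length and by the total count in each library. Positions are 1-based, since the deposited starts were read as counted from 0. The members and the gene lists were chosen with earlier results of these data known. Every fit covered the whole table.

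Each line was fitted on its 4 libraries with the quasi-likelihood F test of edgeR 4.0.16 in R 4.3.3 with TMM factors, on genes over 0.5 CPM in at least 2 libraries. A gene was called at a Benjamini-Hochberg adjusted p under 0.1 over all genes tested and a fold over 1.5. Lines were compared in normoxia, and hypoxia effects between lines (interaction, adjusted p alone), in a joint fit of the 6 groups. CPM printed per library are TMM-scaled. edgeR gives no SE in this test, so each SE was derived as the absolute log2 fold change over the square root of the F statistic. Adjusted p-values are edgeR values over all genes. Lower bounds use 3 reads over both normoxia libraries and, like the exact 95% intervals of ratios, cover counting error only.

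Genes are named by rule: a panel of 10 with known roles; per line the 3 called genes highest and lowest in fold with a mean of 100 reads and no overlap; up to 4 with opposite calls; per pair of lines the 2 most different each way in normoxia; the 5 highest in mean RPKM; and the highest in each large cluster. Alternatives were RLE factors, library size alone, DESeq2 1.42.0, other filters, a fold over 2, limma 3.58.1 on log2(RPKM + 0.1) and log2(RPKM + 1), a replicate block, a joint fit and each library left out. Counts by cluster under other scalings and with single libraries left out were chosen after seeing the data. C2H2 and KRAB patterns were searched in coding sequences from GENCODE on GRCh37, and start regions came from RefSeq on GRCh38.p14; coordinates of the 2 builds were not mixed. Scripts were tested on simulated counts.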

Additional observations from a re-analysis of the deposited data

Results flagged for a closer look

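These results stand out because the hypoxia effect differed between lines, by the interaction term of the joint edgeR fit at an adjusted p under 0.1. Among the 213 genes this held for 13 in the pair RKO and A549, for 54 in the pair RKO and H460, and for 48 in the pair of lung lines. These are 6.1%, 25.4% and 22.5% of the 213, below the 14.6%, 37.6% and 36.0% of all genes. In A549 and H460 fewer of the 213 than of all genes passed the level filter (68.1% and 82.2%, against 91.4% and 90.3%). In RKO more of them passed (90.1%, against 82.2%). The part of low counts in these shares was not tested, and the 48 include ZNF709 and ZNF833P, which were under the level filter of both lung lines. In log2 units, the effect in RKO minus that in A549 was 2.12 for ZNF841, 1.8 for ZNF614, 1.15 for ZNF331 and 0.69 for ZNF121. The effect in RKO minus that in H460 was 1.96 for ZNF611, 1.86 for ZNF846, 1.61 for ZNF235, 1.12 for ZNF738 and 0.87 for ZNF57, and it was -1.79 for ZNF558, -1.49 for ZNF581 and -1.32 for ZNF17. The effect in A549 minus that in H460 was 2.27 for ZNF114, 1.47 for ZNF587B and 1.43 for ZNF30, and it was -2.82 for ZNF773, -1.95 for ZNF460, -1.07 for ZNF791 and -1.01 for ZNF224. For each gene the value is the largest difference among the pairs of lines that passed and in which both lines were tested.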

How the results depend on the processing

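The normoxia counts moved least. Without single libraries they were 123 to 128 (RKO over A549), 30 to 36 (A549 over RKO), 115 to 126 (RKO over H460), 32 to 37 (H460 over RKO), 29 to 32 (A549 over H460) and 70 to 84 (H460 over A549), while a fold over 2 gave 21 for A549 over H460 and limma on log2(RPKM + 1) gave 48 for H460 over A549. In RKO hypoxia, the 47 higher became 22 with a fold over 2 and 28 to 55 without single libraries, and the 9 lower became 5 with library size alone, 3 with a fold over 2, 4 with limma on log2(RPKM + 1) and 4 to 21 without single libraries. In H460, the 51 higher became 24 with library size alone, 22 with a fold over 2, and 21 and 15 with limma at pseudocounts of 0.1 and 1, and 40 to 57 without single libraries. The 23 lower in H460 became 53 with library size alone, 9 with a fold over 2, 48 with limma at 0.1 and 20 to 30 without single libraries. In A549, the 1 higher became 0 with RLE factors, library size alone, a filter of 1 CPM and both limma fits, 2 in the joint fit and 0 to 3 without single libraries, and the 0 lower became 1 in the joint fit and 0 to 1 without single libraries. Higher and lower in all 3 lines each gave 0 to 1 without single libraries. The interaction count of RKO and A549 (13) became 20 with library size alone, 22 with no filter, 41 and 56 with limma, and 6 to 25 without single libraries. That of RKO and H460 (54) became 86 and 91 with limma and 38 to 55 without single libraries, and that of A549 and H460 (48) became 26 to 57. A lone library left in a group was assumed to vary like the other groups. Apart from the shift of scale in library size alone, the causes were not tested. Of 1231 values of single genes and clusters under the alternatives, 1069 kept their direction and side of the threshold or moved by less than the spread, and none of those called reversed.

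The replicate numbers were checked for pairing by the correlation of the deviations of same-numbered libraries, with values of 0.177 (RKO), 0.257 (A549) and 0.068 (H460), which is not over 0.1 in every line, and no source says that a number marks a shared batch or day, so the numbers were not taken to pair the libraries. With the replicate block, A549 gave 4 higher and 5 lower, the count lower in all 3 lines was 1, the RKO and A549 interaction count was 30 and the A549 and H460 count 64, while RKO gave 46 and 10 and H460 51 and 23. Depth was a limit for genes such as ZNF773 in H460 and ZNF93 in RKO, whose normoxia levels were under 0.5 CPM.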
